A study of Homo sapiens with 12 samples.

Results

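Genes of the Wnt pathway were followed in HaCaT cells, a line of immortalised human keratinocytes, across 4 groups of 3 libraries each. The groups were VDR knockout cells treated with 1,25(OH)2D3 for 8 h, untreated VDR knockout cells, wild type cells treated in the same way, and untreated wild type cells. VDR encodes the nuclear receptor that binds 1,25(OH)2D3, the hormone form of vitamin D. Members were chosen by symbol from a list of 10 genes of ligands, receptors and effectors, and 7 of these had a row among the 16271 genes of the table: WNT7A, FZD6, FZD7, LRP6, DKK1, CTNNB1 and TCF7L2. WNT5A, AXIN2 and TCF7L1 were not analysed here. The 7 members also passed the filter on low counts and were tested. The labels do not state the hormone's dose, its vehicle, the kind of VDR edit or how many knockout clones were used, so a difference between the genotypes may include a difference between clones.

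Wnt proteins are secreted lipid-modified ligands that bind Frizzled receptors and, in the canonical branch, the coreceptors LRP5 and LRP6. Binding halts the breakdown of beta-catenin, the product of CTNNB1, which then enters the nucleus and acts with transcription factors of the TCF and LEF family. Secreted inhibitors such as DKK1 block LRP6, and some inhibitors are themselves induced by the pathway. In skin the pathway is known for its part in hair follicle formation and in the upkeep of epidermal stem cells, and beta-catenin has been described as a binding partner of VDR.

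Total RNA was sequenced, and values are CPM, a gene's counts relative to the total of its library, after TMM scaling. Libraries held 11485031 to 15992792 counts. A principal component holding 78.2% of the variance separated the genotypes. On it, untreated wild type replicate 3 scored 26, apart from the 46.4 and 48.1 of replicates 1 and 2. CYP24A1, the textbook target of the receptor, stood at 12.2 ± 0.232 CPM in treated and 16.9 ± 4.83 CPM in untreated knockout cells, and at 1676 ± 61.1 CPM in treated and 48.0 ± 2.88 CPM in untreated wild type cells (SD, n = 3). VDR itself averaged 82.8 CPM in treated and 77.6 CPM in untreated knockout cells, and 71.0 CPM in treated and 103.3 CPM in untreated wild type cells. These counts do not show whether protein is made. Of the 8 keratinocyte markers looked up, 8 were in the table, and their summed level was 1534 to 1898 CPM in the 6 knockout libraries and 3599 to 4168 CPM in the 6 wild type libraries. Of these 8, DSG3 went the other way, higher in the knockout by 1.05 ± 0.09 untreated (adjusted p = 2.59e-08) and 0.65 ± 0.09 treated on the log2 scale, and TP63 did not pass between treated genotypes (-0.15 ± 0.11, adjusted p = 0.214). Of 20 markers of fibroblasts, melanocytes, endothelial and immune cells, 6 were in the table (COL1A1, COL3A1, LUM, PMEL, CDH5 and CD68). The summed fibroblast markers reached at most 6.42 CPM in knockout and 20.6 CPM in wild type libraries. CD68 ranged from 3.56 to 5.41 CPM in knockout and 7.10 to 15.1 CPM in wild type libraries, and CDH5 from 3.77 to 5.41 CPM in knockout and 2.62 to 8.19 CPM in wild type libraries. PMEL reached at most 1.56 CPM in knockout and 1.03 CPM in wild type libraries. Markers also moved with the hormone. In knockout cells KRT14 (-0.87 ± 0.10, adjusted p = 0.00169), KRT15 (-0.66 ± 0.11, adjusted p = 0.00889) and KRT5 (-0.48 ± 0.12, adjusted p = 0.046) fell. With treatment of wild type cells CD68 (0.58 ± 0.16, adjusted p = 0.0163), CDH5 (0.82 ± 0.21, adjusted p = 0.00904) and DSG3 (0.33 ± 0.09, adjusted p = 0.0144) rose, and COL17A1 (-0.46 ± 0.08) and TP63 (-0.53 ± 0.11) fell. The part of these marker levels in the results that follow was not tested, and in bulk RNA fewer cells of a type and less RNA per cell cannot be told apart.

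The genotype separated the members more widely than the hormone did. In untreated cells, 3 of the 7 members were higher in the knockout (FZD6, FZD7 and TCF7L2) and 2 were lower (WNT7A and DKK1), where 35.5% of the 14676 genes tested were called higher and 34.2% lower (edgeR quasi-likelihood, Benjamini-Hochberg adjusted p below 0.05). In treated cells 2 were higher in the knockout (FZD6 and TCF7L2) and 3 lower (WNT7A, DKK1 and CTNNB1), where 38.4% of genes were called higher and 37.4% lower. In knockout cells the hormone raised none by DESeq2 or in the edgeR fit of all 12 libraries. That fit called 2 lower (DKK1 and FZD7), where 0.913% of genes were called higher and 1.64% lower. At an unadjusted p below 0.05 in that fit, 1 member was higher (TCF7L2). With edgeR on the compared groups alone, TCF7L2 was called higher, and CTNNB1, DKK1 and FZD7 lower. Over all genes, 134 rose and 240 fell in knockout cells in the fit of all 12 libraries. With library size alone as the scaling 98 rose and 392 fell. In wild type cells the hormone raised 1 member (LRP6) and lowered 2 (WNT7A and TCF7L2), where 11.5% of genes were called higher and 13% lower. The 2 genotypes' responses differed for 5 members, 2 with a higher response in knockout cells (WNT7A and TCF7L2) and 3 with a lower one (LRP6, DKK1 and FZD7), where 13.8% of genes were called higher and 12.5% lower. The median of the members' absolute log2 fold changes was 0.99 between untreated genotypes, 0.96 between treated genotypes, 0.28 for the hormone in knockout cells and 0.30 in wild type cells. Over all genes tested these medians were 0.47, 0.60, 0.13 and 0.19.

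**Figure D1:**
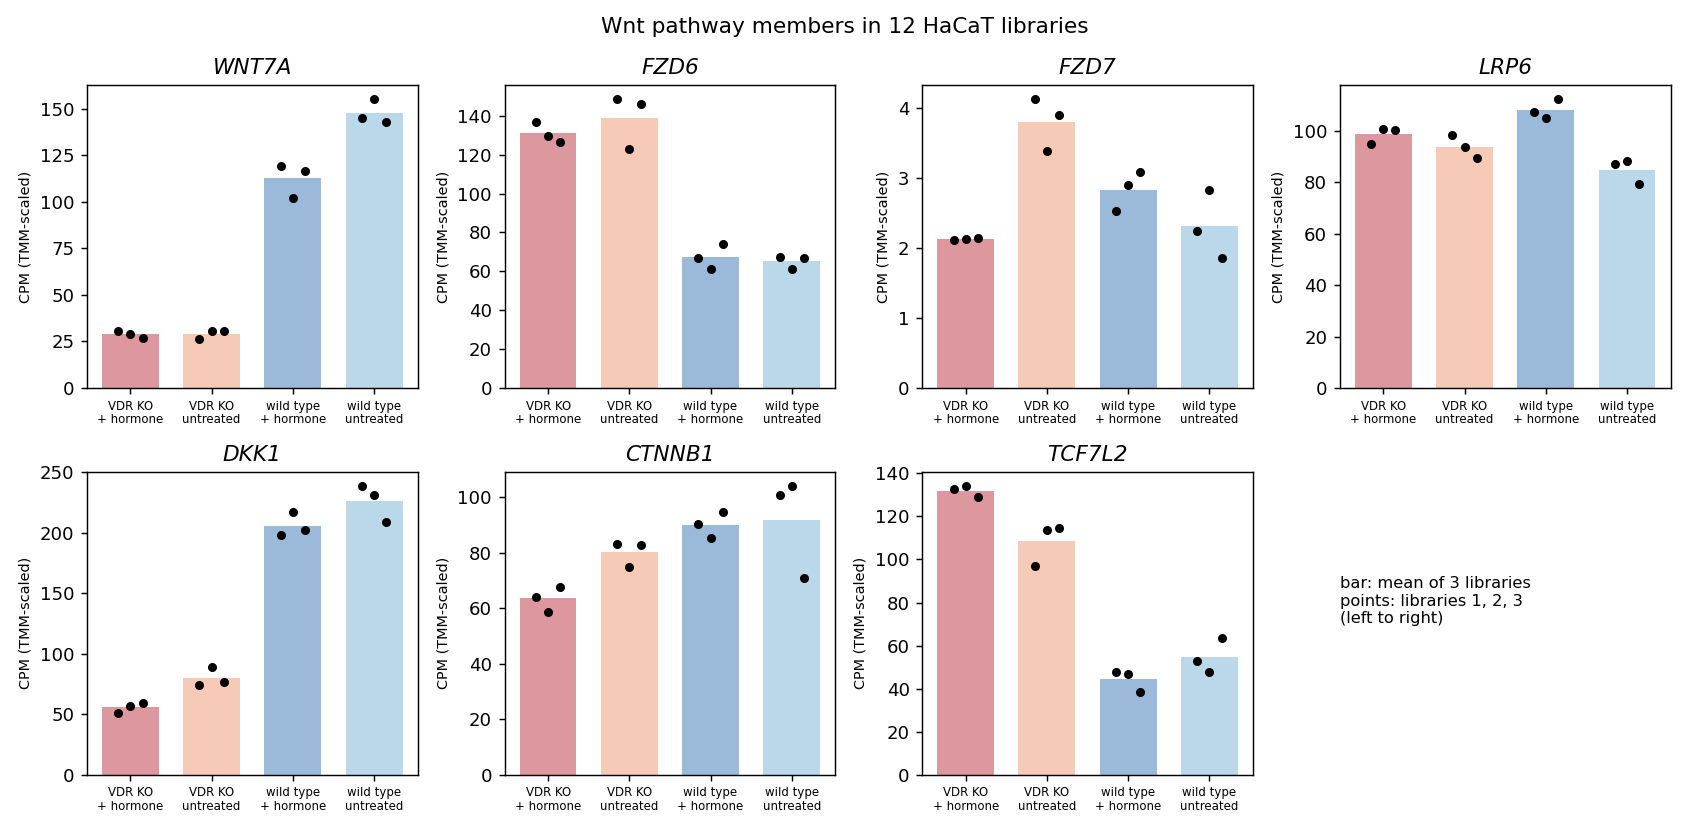
TMM-scaled CPM (y axis, linear, from 0, with its own range for each gene) of the 7 members in the 4 groups (x axis). Bars are means of 3 libraries and points are the libraries. WNT7A and DKK1 stand lower, and FZD6 and TCF7L2 higher, in every knockout library than in any wild type library.

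WNT7A, a ligand expressed in epidermis and the one member that is a Wnt protein, showed the widest difference between the genotypes. Its levels were 30.4, 29.2 and 26.6 CPM in treated and 26.2, 30.3 and 30.6 CPM in untreated knockout libraries. In wild type libraries they were 119.3, 102.2 and 116.5 CPM treated and 144.9, 155 and 142.7 CPM untreated. The 2 knockout groups overlapped, both lay below the wild type groups, and the wild type groups did not overlap each other. The gene was 5.08-fold lower in untreated knockout than untreated wild type cells (log2 fold change -2.35 ± 0.09 SE, adjusted p = 3.06e-12), a larger change than that of 97.5% of the genes tested. In treated cells it was 3.92-fold lower in the knockout (-1.97 ± 0.09, adjusted p = 9.71e-12). With the hormone WNT7A missed the threshold in knockout cells (-0.01 ± 0.09, adjusted p = 0.95), with an approximate 95% interval of -0.22 to 0.19. In wild type cells the hormone lowered it (-0.39 ± 0.08, adjusted p = 0.00265). The responses differed by 0.38 ± 0.12 (adjusted p = 0.0288), a call that was lost when any of 6 single libraries was left out, with adjusted p of 0.0537 to 0.0898.

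WNT7A lies on chromosome 3 (13816258 to 13880121, GRCh38, reverse strand), and no other counted gene with a position in GENCODE v29 overlaps it. That annotation held 15524 of the 16271 counted IDs, and overlaps were searched among these alone. The RefSeq table held a promoter for 4 of the 7 members, and those of the 2 members with the widest genotype difference are shown, as the 250 bases before the annotated start, read 5′ to 3′ along the gene. Capitals mark matches on either strand to CTTTGA or CTTTGT, the core that TCF factors recognise. These matches do not overlap one another. Both windows are on GRCh38.p14, WNT7A at chr3:13880072-13880321 on the reverse strand and DKK1 at chr10:52314031-52314280 on the forward strand.
WNT7A: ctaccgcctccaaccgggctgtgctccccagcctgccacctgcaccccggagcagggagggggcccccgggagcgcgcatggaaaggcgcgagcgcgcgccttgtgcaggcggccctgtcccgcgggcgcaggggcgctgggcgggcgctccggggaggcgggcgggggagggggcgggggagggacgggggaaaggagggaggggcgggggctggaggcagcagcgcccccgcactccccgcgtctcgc
DKK1: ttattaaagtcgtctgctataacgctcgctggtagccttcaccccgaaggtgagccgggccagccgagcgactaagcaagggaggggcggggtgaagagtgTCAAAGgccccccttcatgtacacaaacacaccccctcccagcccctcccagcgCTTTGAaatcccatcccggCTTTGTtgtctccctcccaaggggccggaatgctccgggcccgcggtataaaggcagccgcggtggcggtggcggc
The WNT7A window holds no match to the TCF core. The DKK1 window holds 3, which begin 149, 95 and 76 bases before the start. Of 35116 promoters in the table, cut to the same length, 22.8% held at least 1 match and 0.584% at least 3. Neither window holds a VDR half-site on either strand, searched as AGGTCA or AGTTCA, or either beginning with G, which 33.8% of the promoters held. Among the windows not shown, TCF7L2 has several annotated starts. A window of TCF7L2 holds AGGTCA, beginning 193 bases before its start, and another holds CTTTGT, 133 bases before its start. The remaining window of TCF7L2 and that of CTNNB1 hold neither kind of match. A match of letters describes the window and is not a measured binding site.

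WNT7A was also compared with the other Wnt genes counted, on a scale of CPM per kb of exon (GENCODE v29). The length merges all annotated exons of a gene and can exceed that of the RNA expressed. Levels of different genes can therefore be set side by side only approximately. WNT7A held 11.2 ± 0.186% of the summed level of 7 Wnt genes in treated and 10.0 ± 0.907% in untreated knockout libraries. In wild type libraries it held 25.9 ± 0.887% treated and 29.7 ± 1.21% untreated (SD, n = 3). Each wild type library was above each knockout library. The sum over the 7 ligands was 51.3 to 65.8 CPM per kb in knockout and 89.9 to 117.1 CPM per kb in wild type libraries. WNT10A, the most abundant ligand in knockout cells, stood at 21.7 ± 2.59 CPM per kb treated and 26.7 ± 0.505 CPM per kb untreated there, and at 25.5 ± 0.421 CPM per kb treated and 24.9 ± 1.37 CPM per kb untreated in wild type cells. WNT9A and WNT7A led in untreated wild type cells, at 35.9 ± 5.55 and 32.2 ± 1.43 CPM per kb, and their replicate ranges overlapped.

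**Figure D2:**
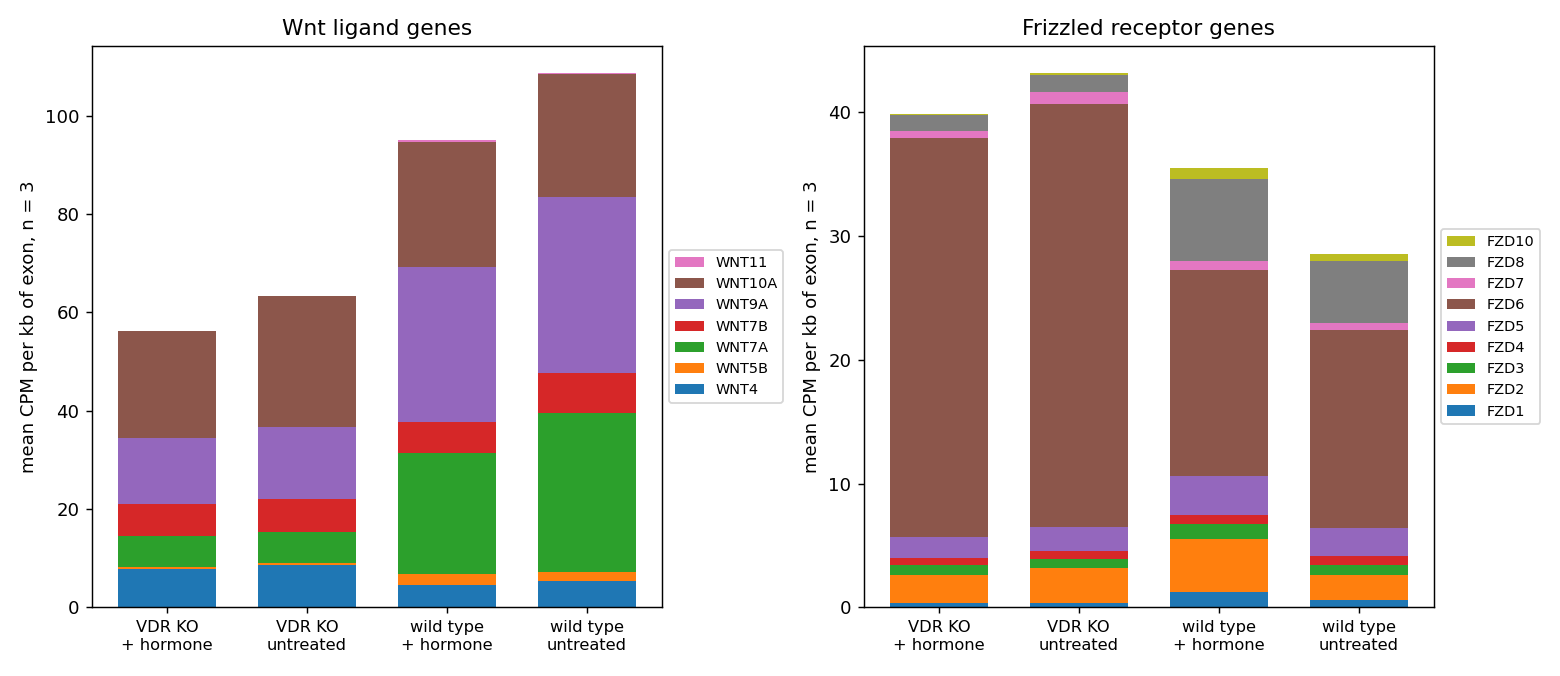
Mean CPM per kb of exon (y axis, stacked, n = 3) of the 7 Wnt ligand genes (left) and 9 Frizzled genes (right) counted, in the 4 groups (x axis). The WNT7A segment is 6.28 and 6.34 CPM per kb in treated and untreated knockout cells and 24.6 and 32.2 CPM per kb in treated and untreated wild type cells, and FZD6 makes up most of the Frizzled sum in knockout cells.

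FZD6, a Frizzled receptor linked to planar cell polarity and hair patterning in the mouse, ran the other way between genotypes. It had 136.9, 129.8 and 126.5 CPM in treated and 148.5, 122.8 and 146 CPM in untreated knockout libraries, against 66.6, 61.3 and 74 CPM in treated and 67.6, 61.2 and 66.8 CPM in untreated wild type libraries. Every knockout library exceeded every wild type library, and treated and untreated libraries overlapped within each genotype. The knockout level was 2.13-fold that of wild type cells untreated (1.09 ± 0.09, adjusted p = 9.88e-09) and 1.95-fold treated (0.96 ± 0.09, adjusted p = 2.69e-08). With the hormone FZD6 did not pass the test in either genotype. Its value was -0.09 ± 0.08 in knockout cells (adjusted p = 0.587, approximate 95% interval -0.28 to 0.11) and 0.05 ± 0.09 in wild type cells (adjusted p = 0.744, interval -0.16 to 0.25). On the per-kb scale FZD6 made up 80.7 ± 2.01% of the sum of 9 Frizzled genes in treated and 79.1 ± 1.21% in untreated knockout libraries. It made up 46.6 ± 0.966% in treated and 56.3 ± 6.05% in untreated wild type libraries. FZD6 lies on chromosome 8 (103298433 to 103332866), and 138 of its 4065 exon bases are shared with RP11-318M2.2 on the opposite strand. That RNA had at most 16% of FZD6's counts and was also higher in the knockout, by 0.86 ± 0.14 untreated (adjusted p = 4.86e-05) and 0.43 ± 0.14 treated (adjusted p = 0.0111).

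FZD7, a Frizzled receptor used in stem cells of several epithelia, was the least abundant member, with 22 to 65 counts in a library. It stood at 2.11, 2.13 and 2.14 CPM in treated and 4.12, 3.38 and 3.90 CPM in untreated knockout libraries. Wild type libraries had 2.52, 2.89 and 3.08 CPM treated and 2.24, 2.83 and 1.86 CPM untreated. Untreated knockout cells were the highest group and did not overlap the others, while the 2 wild type groups overlapped each other. In knockout cells the hormone lowered FZD7 (-0.84 ± 0.19, adjusted p = 0.0356), a larger change than that of 98.8% of the genes tested. That call was lost without any 1 treated knockout library or without untreated knockout replicate 1 or 3 (adjusted p of 0.0823 to 0.163), at a log2 fold change of -0.78 to -0.84, and with the replicate block (adjusted p = 0.0624). In wild type cells the change did not pass (0.30 ± 0.20, adjusted p = 0.308). The difference of the responses was -1.13 ± 0.28 (adjusted p = 0.00734). It kept its call without any 1 library. Untreated knockout cells exceeded untreated wild type cells (0.72 ± 0.19, adjusted p = 0.00317), while treated knockout cells did not pass against treated wild type cells (-0.41 ± 0.20, adjusted p = 0.0741). The gene lies on chromosome 2 (202034587 to 202038445), and no other counted gene with a position in GENCODE v29 overlaps it.

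LRP6, the coreceptor that canonical Wnt signals and DKK1 share, had the smallest log2 differences between the genotypes among the members. It had 95, 100.7 and 100.3 CPM in treated and 98.5, 93.9 and 89.3 CPM in untreated knockout libraries, and 107.5, 105 and 112.3 CPM in treated and 87.3, 88.2 and 79.4 CPM in untreated wild type libraries. Treated wild type cells were highest, untreated wild type cells lowest, and the knockout groups lay between and overlapped. With the hormone LRP6 missed the threshold in knockout cells (0.07 ± 0.07, adjusted p = 0.577, approximate 95% interval -0.09 to 0.23). In wild type cells the hormone raised LRP6 1.27-fold (0.35 ± 0.07, adjusted p = 0.00176), a call kept without any 1 wild type library. The responses differed by -0.28 ± 0.10 (adjusted p = 0.0421), and that call was lost without any of 7 single libraries (adjusted p of 0.0621 to 0.115). Neither genotype comparison passed, at 0.14 ± 0.07 untreated (adjusted p = 0.0697) and -0.13 ± 0.07 treated (adjusted p = 0.0835). The untreated comparison passed when scaled by library size alone (0.27 ± 0.07, adjusted p = 0.00193) and without untreated knockout replicate 3 (0.18 ± 0.08, adjusted p = 0.0476). It also passed with limma (0.27 ± 0.07, adjusted p = 0.00218), which used the authors' CPM and so shares the scaling by library size alone. The treated comparison passed with the compared groups alone (-0.14 ± 0.06, adjusted p = 0.0351). LRP6 lies on chromosome 12 (12116025 to 12267012) and shares no exon base with another counted gene that has a position in GENCODE v29.

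DKK1, the secreted inhibitor that binds LRP6, was the member with the highest level per kb in wild type cells, at 93.3 ± 4.57 CPM per kb treated and 102.6 ± 6.98 CPM per kb untreated. It had 51.2, 57.1 and 59.3 CPM in treated and 74.4, 89.3 and 76.4 CPM in untreated knockout libraries, against 198, 217.2 and 202.2 CPM in treated and 238.5, 231.4 and 209 CPM in untreated wild type libraries. The knockout groups lay below the wild type groups and did not overlap each other, while the wild type groups overlapped. Without hormone its level in the knockout was 2.83-fold lower (-1.50 ± 0.09, adjusted p = 2.42e-10) and with hormone 3.68-fold lower (-1.88 ± 0.09, adjusted p = 1.73e-11). The hormone lowered DKK1 in knockout cells (-0.52 ± 0.09, adjusted p = 0.00815), a call lost without treated knockout replicate 2 (-0.53 ± 0.10, adjusted p = 0.0717). In wild type cells the change did not pass (-0.14 ± 0.08, adjusted p = 0.248, approximate 95% interval -0.33 to 0.06). The responses differed by -0.38 ± 0.12 (adjusted p = 0.0278), a call lost without treated knockout replicate 1, untreated knockout replicate 2 or treated wild type replicate 2 (adjusted p of 0.0618 to 0.0811). DKK1 lies on chromosome 10 (52314296 to 52318042) and shares 212 of its 2206 exon bases with PRKG1-AS1 on the opposite strand. That RNA had 86 to 117 counts in knockout and 52 to 68 in wild type libraries and was higher in untreated knockout than wild type cells (0.50 ± 0.14, adjusted p = 0.0043). No source used here states how strand entered the counting, so reads of such pairs cannot be told apart where they share bases.

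CTNNB1 encodes beta-catenin, whose amount is set largely through protein breakdown, so its RNA does not measure the pathway's activity. Its levels were 64.2, 58.8 and 67.5 CPM in treated and 83, 75 and 82.9 CPM in untreated knockout libraries, and 90.2, 85.4 and 94.5 CPM in treated and 100.8, 104 and 71 CPM in untreated wild type libraries. Treated knockout cells were lowest and overlapped no other group, and the low untreated wild type library is replicate 3, which stood apart. CTNNB1 was lower in treated knockout than treated wild type cells (-0.50 ± 0.11, adjusted p = 0.00076). Between untreated genotypes it did not pass (-0.19 ± 0.11, adjusted p = 0.133), but without untreated wild type replicate 3 it was lower in the knockout (-0.35 ± 0.07, adjusted p = 0.000175). The hormone gave -0.34 ± 0.11 in knockout cells (adjusted p = 0.107) and -0.03 ± 0.11 in wild type cells (adjusted p = 0.877), and the difference of -0.31 ± 0.16 did not pass (adjusted p = 0.166). With the compared groups alone CTNNB1 was called lower with the hormone in knockout cells. The gene lies on chromosome 3 (41194741 to 41260096). It overlaps the span of ULK4 on the opposite strand without sharing an exon base. The counts of ULK4 reached 228% of those of CTNNB1 in an untreated wild type library. With the hormone ULK4 was at -0.48 ± 0.08 in wild type cells (adjusted p = 0.000832) and 0.35 ± 0.08 in knockout cells (adjusted p = 0.0439). The difference of its responses was 0.82 ± 0.12 (adjusted p = 0.00024). ULK4 was at -0.94 ± 0.08 between untreated genotypes (adjusted p = 4.01e-08) and at -0.12 ± 0.08 between treated ones (adjusted p = 0.208).

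TCF7L2, a transcription factor that binds DNA for beta-catenin, rose with FZD6 in the knockout. It had 132.6, 134.1 and 129 CPM in treated and 97, 113.7 and 114.7 CPM in untreated knockout libraries, against 47.9, 46.7 and 38.4 CPM in treated and 52.9, 47.7 and 63.3 CPM in untreated wild type libraries. The knockout groups were apart from each other and above every wild type library, and the wild type groups overlapped. Knockout cells had 1.98-fold the wild type level untreated (0.99 ± 0.10, adjusted p = 2.62e-07) and 2.98-fold treated (1.57 ± 0.10, adjusted p = 8.20e-10). The hormone response was 0.28 ± 0.10 in knockout cells, which did not pass (adjusted p = 0.122), and -0.30 ± 0.11 in wild type cells (adjusted p = 0.0463). With the compared groups alone TCF7L2 was called higher with the hormone in knockout cells. The wild type call was lost without any 1 treated library or without untreated replicate 1 or 3 (adjusted p of 0.0538 to 0.243), and without treated replicate 3 or untreated replicate 3 the value was -0.20 and -0.18. It was also lost with library size alone as the scaling (adjusted p = 0.0569) and with limma, which shares that scaling (0.0601). The compared groups alone (0.122) and the replicate block (0.0761) lost it too. The difference of the responses was 0.59 ± 0.15 (adjusted p = 0.00786), a call kept without any 1 library. TCF7L2 lies on chromosome 10 (112950250 to 113167678), and 300 of its 6736 exon bases are shared with RP11-57H14.2 on the opposite strand, which had at most 10.4% of its counts. That RNA was also higher in the knockout, by 0.79 ± 0.15 untreated (adjusted p = 0.000204) and 0.72 ± 0.15 treated (adjusted p = 0.00036).

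**Figure D3:**
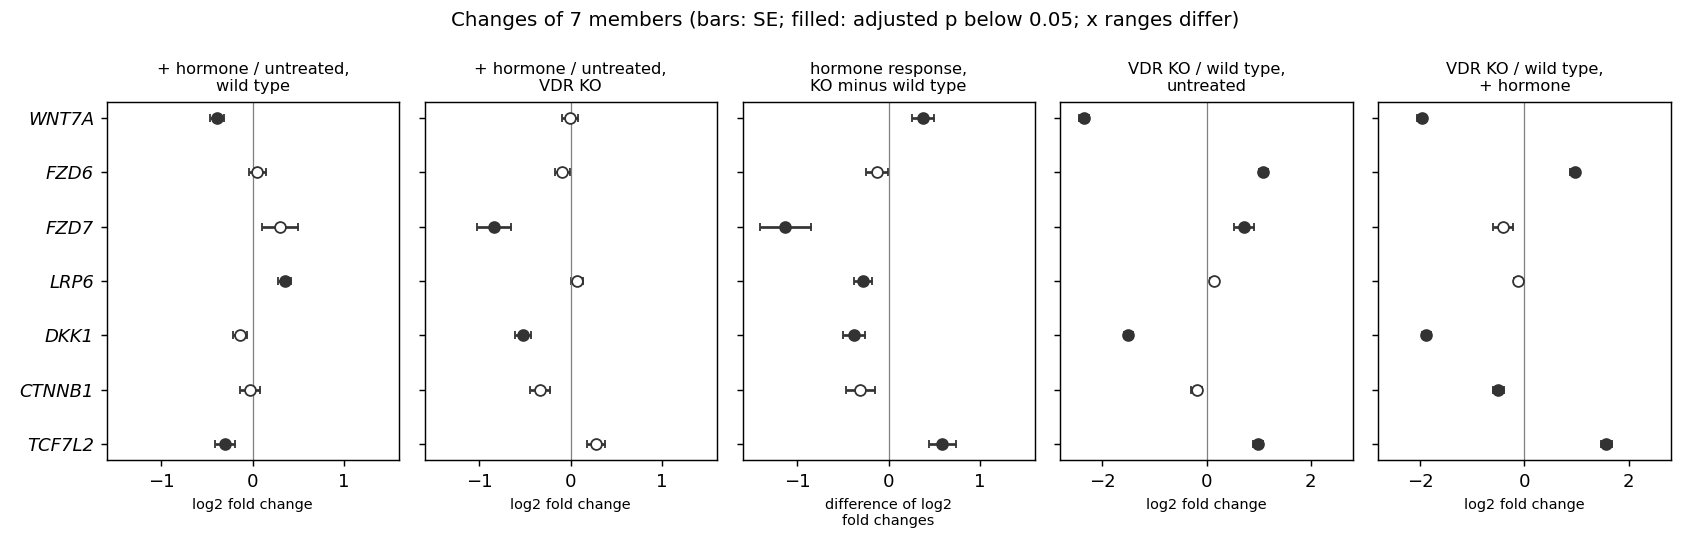
Log2 fold changes (x axes, ranges differ) of the 7 members (rows) in the 5 comparisons (panels), with approximate standard errors as bars and filled points for adjusted p below 0.05. WNT7A at -2.35 and -1.97 and DKK1 at -1.50 and -1.88 lie farthest left in the genotype panels, and FZD7 at -1.13 lies farthest from 0 in the difference of the responses.

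The 2 genotype comparisons have no library in common, but each shares its libraries with 1 hormone comparison in each genotype, so these values are not independent of one another. DKK1 and WNT7A were lower in knockout cells both untreated and treated, and FZD6 and TCF7L2 higher in both. FZD7, at 0.72 untreated and -0.41 treated on the log2 scale, and LRP6, at 0.14 and -0.13, had opposite signs in the 2 comparisons, and only the untreated value of FZD7 passed. Per kb of exon, the order in untreated knockout cells was DKK1 (36.3 CPM per kb) and FZD6 (34.2), whose libraries overlapped, then TCF7L2 (16.1), LRP6 (9.08), CTNNB1 (6.73) and WNT7A (6.34), the last pair overlapping, and FZD7 (0.985). In untreated wild type cells it was DKK1 (102.6 CPM per kb), WNT7A (32.2), FZD6 (16.0), then LRP6 (8.22), TCF7L2 (8.11) and CTNNB1 (7.71), which overlapped, and FZD7 (0.599). Both orders rest on merged exon lengths, from 2206 bases for DKK1 to 11927 for CTNNB1, and are approximate.

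Other genes of the pathway were taken from a list of 103 symbols by role, of which 66 were tested. The list was chosen with earlier results of these data known. With the hormone in wild type cells 12 of these rose and 5 fell, 18.2% and 7.58%, against 11.5% and 13% of all genes tested, with a median log2 fold change of 0.05 against 0.00 over all genes tested. Receptors held 5 of the rises among 11 tested. FZD1 (1.09 ± 0.21, adjusted p = 0.00149), FZD2 (1.06 ± 0.20, adjusted p = 0.00126), FZD3 (0.57 ± 0.14), FZD5 (0.52 ± 0.13) and PTK7, a receptor-like pseudokinase (0.32 ± 0.07), rose, while ROR1, a receptor of the non-canonical branch, fell (-0.41 ± 0.07, adjusted p = 0.000942). FZD1 and FZD2 had low counts, 36 to 52 and 44 to 60 in untreated and 101 to 134 and 106 to 135 in treated wild type libraries. LGR4, a receptor for R-spondins, which strengthen Wnt signals, rose (0.44 ± 0.07, adjusted p = 0.000507), as did DVL2, an adaptor below Frizzled (0.33 ± 0.07), and KREMEN2, a partner of DKK1 (0.87 ± 0.18). The ligand WNT7B (-0.40 ± 0.08), the corepressor CTBP2 (-0.30 ± 0.07), and BAMBI (-0.75 ± 0.12) and FOSL1 (-0.32 ± 0.11), both listed as targets, fell. Leaving out untreated wild type replicate 3 gave 11 rises and 8 falls in the list, and leaving out untreated replicate 2 gave 17 rises and 4 falls.

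In knockout cells none of the 66 rose with the hormone in the edgeR fit of all 12 libraries, and 1 did without untreated knockout replicate 2. DESeq2 called 2 higher, and edgeR on all libraries put 4 higher before adjustment (unadjusted p below 0.05). By edgeR 2 fell, 3.03% against 1.64% of all genes tested, namely JUN (-0.59 ± 0.09, adjusted p = 0.00759) and ID2 (-0.57 ± 0.12, adjusted p = 0.0227), both transcriptional regulators listed as targets. None of the list was called without treated knockout replicate 2, and 1 without treated replicate 3 or untreated replicate 1. The difference of the responses called 8 of the list higher and 16 lower in knockout cells, 12.1% and 24.2%, against 13.8% and 12.5% of all genes tested. ROR1 (0.55 ± 0.10), APC, part of the complex that breaks down beta-catenin (0.52 ± 0.11), CTBP2 (0.43 ± 0.10), BAMBI (0.60 ± 0.16), TLE4, a corepressor of TCF factors (1.04 ± 0.28), and BTRC, a subunit of the ubiquitin ligase for beta-catenin (0.38 ± 0.12), were higher. FZD2 (-1.37 ± 0.28), KREMEN2 (-1.13 ± 0.26), PTK7 (-0.45 ± 0.11), PYGO2 (-0.47 ± 0.12), LGR4 (-0.37 ± 0.10) and FZD5 (-0.70 ± 0.19) were lower, with adjusted p of 0.00132 to 0.029 over these 12. Without treated knockout replicate 2 or 3, untreated knockout replicate 1 or treated wild type replicate 3, this count of 24 became 13, 15, 15 and 14.

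Between the genotypes the list leaned lower in the knockout, at 12 higher and 35 lower untreated (18.2% and 53%, against 35.5% and 34.2% of all genes tested) and 15 higher and 39 lower treated (22.7% and 59.1%, against 38.4% and 37.4%). Its median log2 fold changes were -0.29 and -0.69, against 0.01 and 0.02 over all genes tested. PORCN, the enzyme that attaches the lipid to Wnt proteins, was lowest of the genes named, at -2.94 ± 0.09 untreated (adjusted p = 2.20e-13) and -3.13 ± 0.09 treated. WLS, the carrier that takes Wnt proteins to the cell surface, was higher in the knockout (0.34 ± 0.07 untreated and 0.66 ± 0.07 treated). FOSL1 (-2.45 ± 0.11 untreated and -2.25 ± 0.11 treated), VEGFA (-1.73 ± 0.09 and -2.17 ± 0.09) and CCND1, the gene of cyclin D1 (-1.42 ± 0.10 and -1.43 ± 0.10), all listed as targets, were lower in both. DKK3, a relative of DKK1, was lower too (-1.37 ± 0.07 and -1.68 ± 0.08), as were DVL1 (-1.74 ± 0.12 and -1.69 ± 0.12) and FZD8 (-1.86 ± 0.17 and -2.35 ± 0.17). RNF43, a ubiquitin ligase that removes Frizzled receptors from the cell surface, was higher (1.40 ± 0.16 untreated and 1.85 ± 0.16 treated). GSK3B, a kinase that marks beta-catenin for breakdown (0.59 ± 0.08 and 0.86 ± 0.08), the corepressor TLE3 (0.89 ± 0.09 and 0.67 ± 0.09) and ID2 (1.39 ± 0.13 and 0.88 ± 0.13) were also higher in both. So were LGR6 (1.09 ± 0.12 untreated and 0.68 ± 0.12 treated), LGR4 (0.56 ± 0.07 and 0.19 ± 0.07) and WNT4 (0.68 ± 0.10 and 0.78 ± 0.10). The largest adjusted p among these values was 0.0237, for LGR4 in treated cells. Of 12 targets listed, 10 were tested, of which 8 were lower and 1 higher untreated, and 8 lower and 2 higher treated. SP5 and TNFRSF19 were the targets not tested. Each gene was listed under a single role, so inhibitors that the pathway may itself induce, such as RNF43, are not among these targets. Of 8 inhibitors tested, 2 were higher and 3 lower, both untreated and treated. Whether these counts reflect the pathway's activity was not tested.

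**Figure D4:**
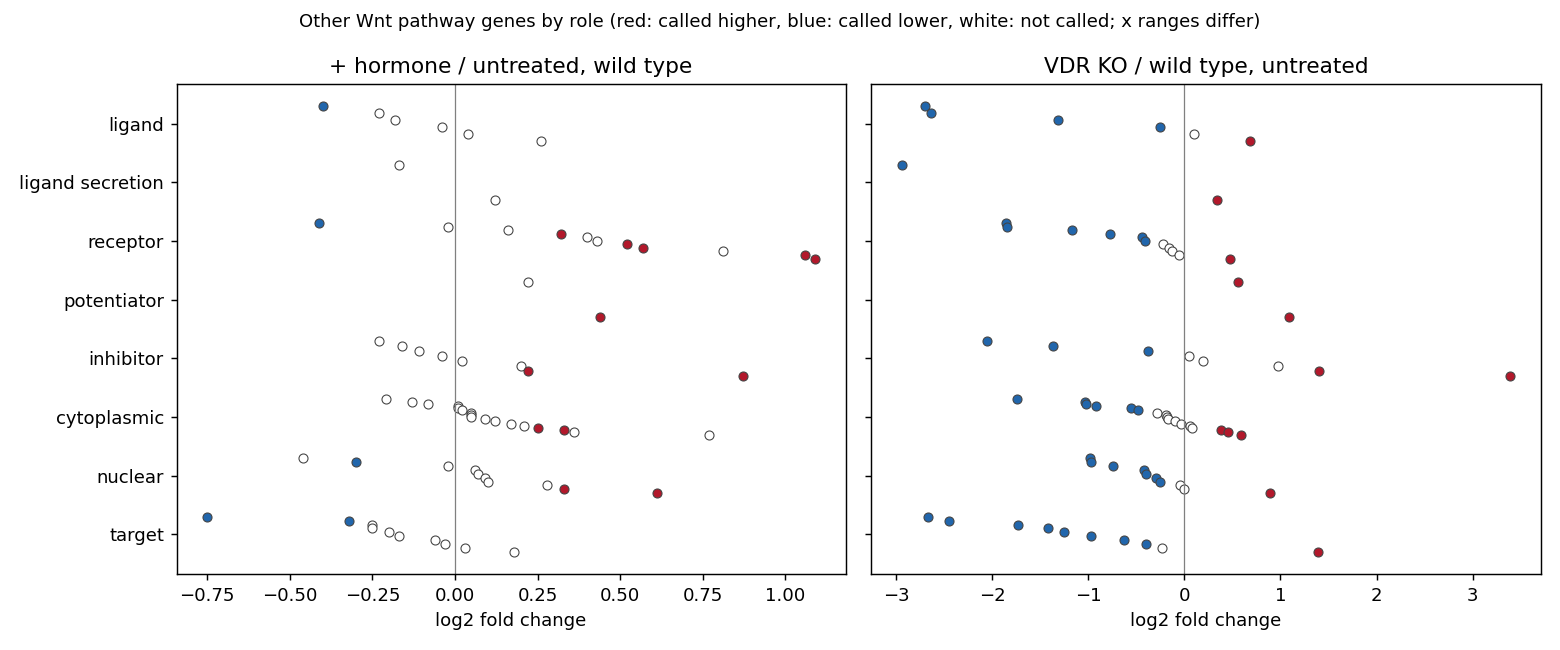
Log2 fold change (x axes, ranges differ) of 66 other Wnt pathway genes, by role (rows), for the hormone in wild type cells (left) and for knockout against wild type in untreated cells (right). Red points were called higher, blue lower and white not called. Receptors hold 5 of the 12 rises at left, where 11.5% of all genes tested rose. At right 8 of 10 targets tested were called lower, against 34.2% of all genes tested. The list was chosen with earlier results of these data known, and genes listed as inhibitors are not counted as targets.

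The genes whose log2 CPM ran most like a member's over the 12 libraries were looked up among 14168 genes, for the 5 members called with the hormone or in the difference of responses. The libraries form 2 genotype clusters, which enter r for WNT7A, TCF7L2 and DKK1, called between the genotypes in both treatments. LRP6 and FZD7 were not split in this way, with r of -0.14 and -0.274 with WNT7A. Each r is given as a description. The nearest genes were SGTA and GARS for WNT7A (Pearson r of 0.998 and 0.998), PEX14 and ZRANB3 for TCF7L2 (0.996 and 0.994), and TAB1 and RP11-43F13.1 for DKK1 (0.993 each). MIR636 and SRSF2 were nearest to FZD7 (0.961 and 0.959), and SLC25A44 and CHST7 to LRP6 (0.909 and 0.908).

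The authors' deposited table of gene ontology terms for the hormone in knockout cells, whose listed genes matched here were lower with treatment in 100% of 242 cases, holds a Wnt planar cell polarity term. The authors' deposited table gives this term 10 of 306 listed genes, FZD7 and DKK1 among them, with the authors' adjusted p of 0.0106. Of the 173 terms it holds, 133 had an authors' adjusted p below 0.05. For untreated knockout against wild type cells, the authors' deposited table of genes lower in the knockout gives a Wnt cell signalling term with 141 of 3405 listed genes, WNT7A and DKK1 among them, and an adjusted p of 0.0837. Of the 212 terms in this second table, 142 had an authors' adjusted p below 0.05.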

How the data were processed

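Total RNA of 12 HaCaT libraries was analysed, grouped by the labels. The authors deposited raw read counts per gene and library, and the authors' CPM, used here for 1 alternative. Deposited enrichment tables hold, per the file headers, the p-value of each term, raw and adjusted, with its gene numbers. BWA 0.5.9 and the mouse build mm9 are named, per the submitters' processing notes. Since the IDs belong to human genes, the true build, annotation and counting tool remain unknown here. Positions and exon lengths come from GENCODE v29 (GRCh38), which held 15524 of 16271 IDs, and promoter sequences from RefSeq (GRCh38.p14).

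The main test was that of edgeR 4.0.16 in R 4.3.3 (TMM, factors 0.95 to 1.057; filterByExpr, 14676 genes kept; robust quasi-likelihood F test) in 1 fit of 4 group means over 12 libraries. P-values were adjusted by Benjamini-Hochberg over all genes tested within each of 5 comparisons. A gene was called at an adjusted p below 0.05. The SE is taken from the log2 fold change and F, and approximate 95% intervals use 8 degrees of freedom. The fitting code was run on simulated counts with the same relative spread for all genes and no difference between genotypes. That run checks the code and cannot show how well the fit suits these libraries. Alternatives used DESeq2 1.42.0 and limma 3.58.1, other scalings and filters, the compared groups alone, a replicate block, and each library left out. The limma fit used the authors' CPM, scaled by library size alone.

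The members and lists were chosen with earlier results of these data known. Named genes were the members, and of the other Wnt genes up to 6 called in either direction, ranked by adjusted p, with at least 1 CPM in a compared group, plus the 2 genes most correlated with each member called with the hormone or in the difference of responses, FZD3 and FZD5 being added after their values were seen. Whether replicates were separate cultures is not stated, and p-values then measure only variation among these libraries, which may be technical.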

Additional observations from a re-analysis of the deposited data

Results flagged for a closer look

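The hormone response differed between VDR knockout and wild type cells for 5 of the 7 members by the test of that difference (edgeR quasi-likelihood over all genes). Of all genes tested, 13.8% were called higher and 12.5% lower in that test. On the log2 scale, knockout minus wild type, the difference was 0.59 for TCF7L2, whose response was 0.28 in knockout and -0.30 in wild type cells. It was 0.38 for WNT7A, with responses of -0.01 in knockout and -0.39 in wild type cells. It was -1.13 for FZD7, with responses of -0.84 in knockout and 0.30 in wild type cells. It was -0.38 for DKK1 and -0.28 for LRP6. The calls of WNT7A, DKK1 and LRP6 were each lost without some single libraries. Without treated knockout replicate 1 only those of FZD7 and TCF7L2 remained. Groups of 3 libraries are too small for the check of single outlying samples.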

How the results depend on the processing

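Over settings other than leaving out a library, 261 of 272 log2 fold changes of a member kept their direction and their side of the threshold, 6 lost the call and 5 gained one, and none changed sign. With a library left out, 216 of 252 kept both, 27 lost the call, 2 gained one and 7 changed sign, each of the 7 in a value that did not pass: with the hormone the ranges were -0.08 to 0.04 for WNT7A in knockout cells, and -0.18 to 0.07 for CTNNB1 and -0.02 to 0.12 for FZD6 in wild type cells. The number of members called for the hormone in knockout cells was 2, and became 4 with the compared groups alone, where CTNNB1 and TCF7L2 joined, and 1 with DESeq2, which gave FZD7 no adjusted p. It ranged from 0 to 2 with a library left out. For the difference of responses it ranged from 2 to 5 with a library left out. Counts of the other Wnt genes were recomputed after seeing the data. For the hormone in knockout cells DESeq2 called 5 against 2, and leaving out a library gave 0 to 3. For the difference of responses that range was 13 to 26. Over all genes the hormone in knockout cells called 374, against 906 with DESeq2, 1775 with the compared groups alone, 143 with the replicate block and 9 to 278 with a library left out. In wild type cells it called 3602, against 2218 with the compared groups alone and 2112 to 3795 with a library left out. The cause of these shifts was not tested.

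Same-numbered libraries of different groups did not deviate together (r of -0.15 to 0.163 across genes), and 7 of 36 correlated best with their own number, so the numbers were not taken to pair the samples. Untreated knockout and wild type cells came nearest, at r of 0.049 to 0.163 and 5 of 6. With the replicate block the members called for the hormone in knockout cells numbered 1 instead of 2, as FZD7 lost its call (adjusted p = 0.0624). The block also took the call from TCF7L2 in wild type cells (adjusted p = 0.0761) and from LRP6 in the difference of responses (adjusted p = 0.0683). With library size alone the median log2 difference of all genes between genotypes was 0.13 in both treatments, against 0.01 untreated and 0.02 treated with TMM, and no direction of a member changed. That scaling called 6224 genes higher and 4085 lower in the knockout untreated, against 5207 and 5019 with TMM, and 6394 and 4864 treated, against 5640 and 5493. FZD7, with 22 to 65 counts, is the member whose precision depth limits most.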
